A study of Mus musculus with 50 samples.

Results

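Fc gamma receptors bind the constant part of immunoglobulin G, and the transcripts of these receptors and of their common chain were followed in hippocampal microglia. Fcgr1, Fcgr3, Fcgr4, Fcgr2b, Fcer1g and Fcgrt were taken by gene symbol, with earlier results of these data known. They were 6 of the 53700 genes counted, and all 6 were among the 16696 genes that passed the filter on low counts (at least 1 CPM in more than 2 mice, where CPM is the count scaled by library size). Microglia came from 50 male C57BL/6J mice that were reared from P2 to P9 with limited bedding and nesting material as early-life stress (ELS) or with control housing (CTR). Mice were sacrificed without injection at P9 (12 P9-CTR and 13 P9-ELS), or at P200, 3 hours after an intraperitoneal injection. The injection was PBS (7 P200-CTR-PBS and 6 P200-ELS-PBS) or 1 mg/kg of the bacterial cell wall component lipopolysaccharide (LPS; 7 P200-CTR-LPS and 5 P200-ELS-LPS). Viable CD45int CD11b+ cells were sorted after incubation with an Fc receptor blocking antibody, which was used in all groups, and their poly-A RNA gave 1 sequenced library per mouse.

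Fcgr1, Fcgr3 and Fcgr4 encode the ligand-binding chains of the activating receptors, of which the Fcgr1 product has the highest affinity for monomeric immunoglobulin G. These chains need Fcer1g, the common gamma chain, whose ITAM is phosphorylated by Src family kinases and recruits Syk when an immune complex crosslinks the receptors. Fcgr2b encodes the inhibitory receptor, whose ITIM recruits the phosphatase encoded by Inpp5d and restrains the same cascade. Fcgrt encodes the heavy chain of the neonatal Fc receptor, which pairs with beta-2-microglobulin in endosomes and returns immunoglobulin G and albumin to the cell surface. In microglia and other macrophages, the activating receptors drive the uptake of antibody-coated particles.

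In GRCm39, Fcgr2b (ENSMUSG00000026656, chr1:170786186-170804177, minus strand), Fcgr4 (ENSMUSG00000059089, chr1:170846466-170857330, plus strand) and Fcgr3 (ENSMUSG00000059498, chr1:170878738-170893549, minus strand) lay next to each other. Fcer1g (ENSMUSG00000058715, chr1:171057141-171062219, minus strand) was on the same chromosome. Fcgr1 (ENSMUSG00000015947) was at chr3:96190225-96201338 and Fcgrt (ENSMUSG00000003420) at chr7:44742412-44756819, both on the minus strand. All 6 were annotated as protein coding.

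The sequence before the RefSeq start site is shown for the ligand-binding chains of the activating receptors, since Fcgr3 and Fcgr4 were called after LPS in both conditions and Fcgr1 in neither. Each window of 250 bases from the RefSeq promoter table, of which all 6 genes had an entry, was found once in GRCm39. Fcgr3 had 2 entries, and the first was used. Bases inside exons annotated by GENCODE are left out for Fcgr1 (chr3:96201339-96201535, minus strand). For Fcgr3, whose window lay mostly in such exons, 30 bases around a match are given, whether or not they are exonic (chr1:170887105-170887134, minus strand). The whole window is given for Fcgr4 (chr1:170846245-170846494, plus strand), of which the last 29 bases lay in annotated exons. Capitals mark matches, lying wholly in the printed bases, to the motifs described after the sequences.
Fcgr1: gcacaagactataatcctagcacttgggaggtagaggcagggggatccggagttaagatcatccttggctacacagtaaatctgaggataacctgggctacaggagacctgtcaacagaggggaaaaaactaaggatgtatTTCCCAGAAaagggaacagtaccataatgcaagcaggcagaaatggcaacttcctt
Fcgr3: acagtagcttGGGGTTTTCCccaagggtac
Fcgr4: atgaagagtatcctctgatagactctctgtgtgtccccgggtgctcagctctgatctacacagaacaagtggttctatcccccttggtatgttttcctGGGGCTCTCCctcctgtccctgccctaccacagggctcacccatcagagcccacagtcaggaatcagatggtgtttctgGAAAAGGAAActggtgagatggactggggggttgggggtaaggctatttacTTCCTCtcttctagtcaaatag

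Searched on both strands of the 250 bases were the PU.1 core GAGGAA, the GAS motif TTCNNNGAA, the ISRE core (GAAA, any 2 bases, GAAA), the AP-1 motif TGANTCA, the TATA box TATAAA and the NF-kB motif. These 6 motifs were chosen after the windows had been read, and no matches overlapped. The PU.1 core, bound by a transcription factor that all macrophages depend on, was found in the windows of Fcgr1, Fcgr3 and Fcgr4 and in 23.1% of 27025 mouse promoters of the same length. In Fcgr4 this match lay 22 to 17 bases before the start, within annotated exon bases. The match of Fcgr1 (55 to 50 bases before the start, partly in annotated exon bases) is cut by the end of the printed bases. That of Fcgr3 (6 to 1 bases before the start) lies outside them, so neither is in capitals. NF-kB motifs were found for Fcgr3 and Fcgr4, in both from 152 to 143 bases before the start, against 3.75% of all promoters. The Fcgr3 window (chr1:170886973-170887222) lay inside the annotated gene, with 219 of its 250 bases in annotated exons. Whether its NF-kB match lay in those exon bases was not checked, so it is not shown to be upstream sequence. Fcgr4 also held an ISRE core (73 to 64 bases before the start, against 3.04% of promoters), the motif of interferon-regulated factors, and Fcgr1 a GAS motif (109 to 101 bases before the start, against 7.18%), the motif bound by STAT dimers after interferon gamma. Neither the AP-1 motif (6.87% of promoters) nor the TATA box (13%) was found for these genes. The windows of Fcgr2b, Fcer1g and Fcgrt held none of the 6 motifs, but all 250 bases of each lay in exons annotated by GENCODE. The lack of a match there does not describe sequence upstream of those exons. A match describes letters and does not show that a factor was bound.

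Parts of Fcgr2b and Fcgr3 are nearly the same, which limits how reads can be assigned to either gene. The following coding stretch of exon 3 is shown for this reason (Fcgr2b chr1:170795553-170795672 and Fcgr3 chr1:170885264-170885383, both on the minus strand, GRCm39); it was equal in 119 of 120 letters, and the capital marks the letter that differs.
Fcgr2b: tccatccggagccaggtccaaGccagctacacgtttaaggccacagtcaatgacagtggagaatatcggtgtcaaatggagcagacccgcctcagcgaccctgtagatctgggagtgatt
Fcgr3: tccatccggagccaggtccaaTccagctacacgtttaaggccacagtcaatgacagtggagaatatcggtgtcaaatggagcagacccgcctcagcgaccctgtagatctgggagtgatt

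Exon 4 of Fcgr2b and exon 4 of Fcgr3 were equal in 250 of 255 letters (98.0%). Of all stretches of 50 bases in the transcripts, 7.33% of those of Fcgr3 and 9.23% of those of Fcgr2b also occurred in another gene, and 166 were shared between these genes. For stretches of 100 bases, the shares were 2.11% and 5.75%. Fcgr1, Fcgr4 and Fcer1g shared no stretch of 50 bases, and Fcgrt shared 0.156%. Since unique reads were counted, a read that lay wholly in a stretch shared by Fcgr2b and Fcgr3 was counted for neither gene. An antisense transcript, Gm38204, overlapped 6.06% of the exon bases of Fcgr2b. Of the shared stretches of Fcgr2b, 258 of 50 bases and 158 of 100 bases were shared with Gm38204. Whether reads there were counted depends on the strand setting of the counting, which was not given in the sources used here.

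Between 5152838 and 42231258 reads were counted per mouse (median 19960409). In 3 libraries, 12482 to 15731 genes had a count above 0, against 16485 to 21100 in the other mice. These were the mice P9_19.2_ELS, P9_19.3_ELS and P200_1.1_CTR_PBS. P9_19.2_ELS stood apart in the Fc receptor genes, with 5620 CPM (scaled by the TMM method) for Fcgr3 against 1840 to 2360 CPM in the other P9-ELS mice, and 4100 CPM for Fcer1g against 1160 to 1660 CPM. For the Fc receptor genes, results are therefore given with and without these libraries where they differed. Results for genes of the other lists are from all mice. The 8 markers of microglia, among them P2ry12, Tmem119 and Cx3cr1, summed to 32100 to 77100 CPM in every mouse. Markers of neutrophils stayed at or under 9.99 CPM in sum, those of monocytes at or under 19.4 CPM and those of natural killer cells, which use Fcer1g, at or under 13.6 CPM. Fewer cells of a type and less RNA per cell cannot be told apart in such samples.

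Levels of different genes were compared as CPM per kb of exon. In P9-CTR microglia, Fcer1g had the highest level (1200 CPM per kb), followed by Fcgr3 (659), Fcgrt (138), Fcgr1 (94.9), Fcgr2b (45.1) and Fcgr4 (12.9 CPM per kb). P200-CTR-PBS microglia had Fcer1g at 1200, Fcgr3 at 1140, Fcgr1 at 164, Fcgr2b at 102, Fcgrt at 40.6 and Fcgr4 at 8.44 CPM per kb. Fcgrt was thus the third of the 6 genes at P9 and the fifth at P200. In P200-CTR-LPS microglia Fcgr3 came first with 2000 CPM per kb, ahead of Fcer1g with 1330 CPM per kb. The order of Fcer1g and Fcgr3 in P200-CTR-PBS depended on the length used, since with the longest transcript in place of all exon bases Fcgr3 (1780 CPM per kb) was above Fcer1g (1340 CPM per kb).

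**Figure D1:**
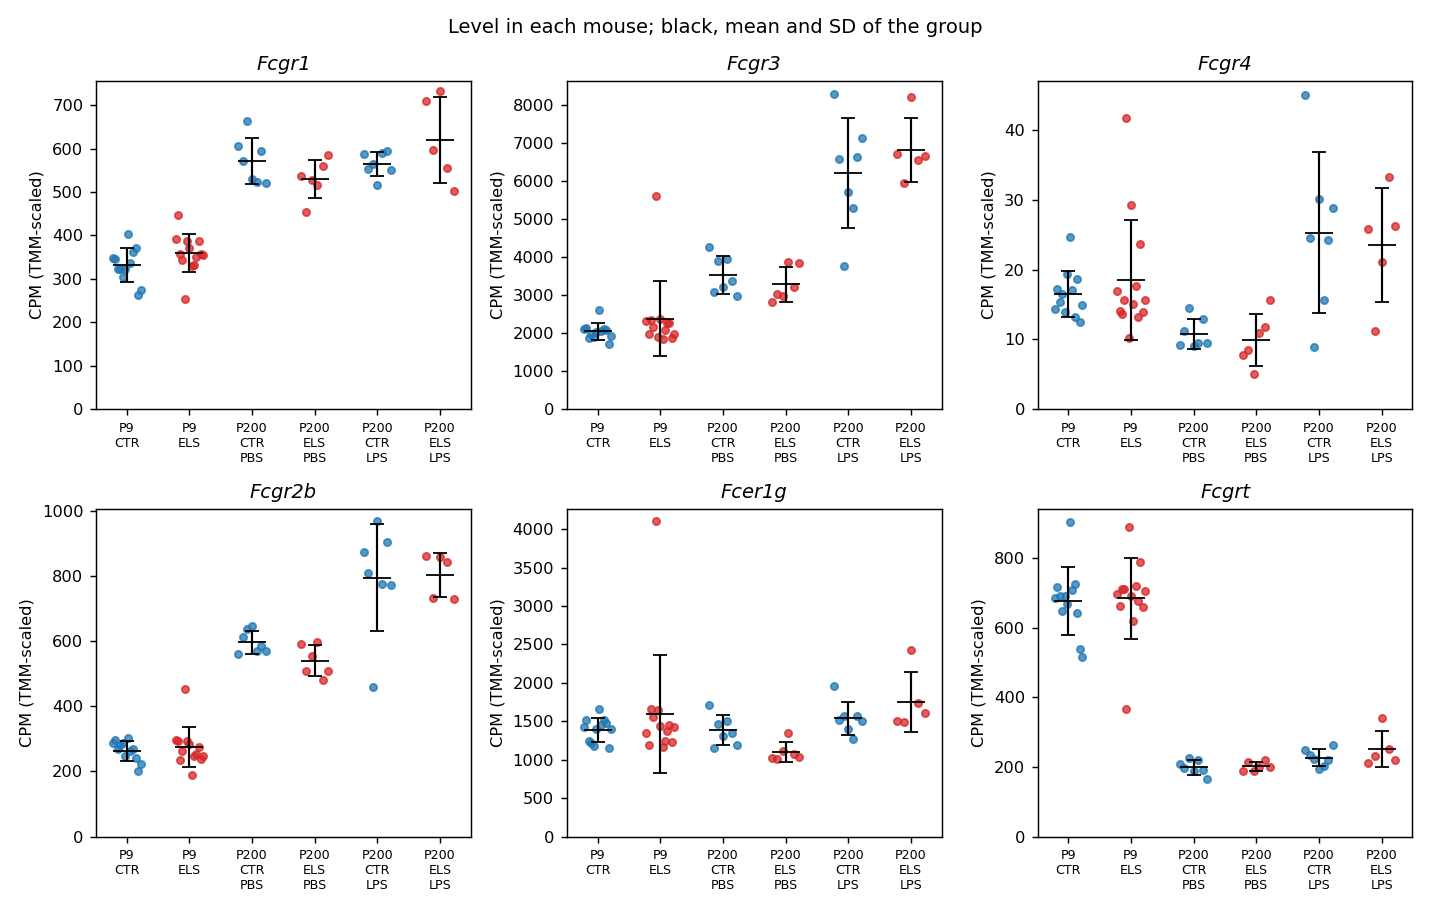
Level of each Fc receptor gene in CPM (TMM-scaled, linear axis from 0) in every mouse of the 6 groups; each point is a mouse, blue for CTR and red for ELS, and the black bars are the mean and SD of the group. Fcgr1 and Fcgr2b lie higher and Fcgrt lower at P200 than at P9, Fcgr3, Fcgr4 and Fcgr2b lie higher after LPS, and the single high P9-ELS point for Fcgr3 (5620 CPM) and Fcer1g (4100 CPM) is P9_19.2_ELS.

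To see how the receptor genes changed between P9 and P200, microglia of PBS-injected adults were compared with those of uninjected pups. The inhibitory receptor Fcgr2b and the activating receptors Fcgr1 and Fcgr3 rose with age in both CTR and ELS microglia, while Fcgr4 and the neonatal receptor Fcgrt fell. The largest rise in CTR was that of Fcgr2b, 2.26-fold, and the largest fall was that of Fcgrt, to 0.294-fold. Fcer1g fell in ELS, and in CTR its fitted fold change was 0.999. In CTR, 5 of the 6 genes were called at an adjusted p under 0.05, against 44.1% of all genes tested. Of these, 2 were DEGs with a log2 fold change beyond 1 in either direction (26.4% of all genes). In ELS, 6 of 6 genes were called (42.2% of all genes), of which 1 was a DEG (26.2%). Over all genes, 2911 were higher and 4445 lower in CTR, and 2863 higher and 4182 lower in ELS. The called genes were thus a larger share of the 6 than of all genes tested in both conditions, while the DEGs were close to their background.

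Fcgr2b ranged from 201 to 303 CPM with a median of 269 CPM in P9-CTR and from 559 to 646 CPM with a median of 585 CPM in P200-CTR-PBS. The corresponding values were 191 to 454 CPM (median 263 CPM) in P9-ELS and 482 to 597 CPM (median 531 CPM) in P200-ELS-PBS. In both conditions every adult was above every pup, with log2 fold changes of 1.18 (SE 0.11, adjusted p = 5.96e-13) in CTR and 0.98 (SE 0.11, adjusted p = 3.77e-10) in ELS.

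Fcgr1, the high-affinity receptor, was at 262 to 402 CPM (median 330 CPM) in P9-CTR and at 520 to 663 CPM (median 571 CPM) in P200-CTR-PBS. In ELS it was at 254 to 447 CPM (median 357 CPM) at P9 and at 454 to 586 CPM (median 533 CPM) at P200. Its groups did not overlap between the ages, and the log2 fold changes were 0.79 (SE 0.08, adjusted p = 7.22e-11) in CTR and 0.56 (SE 0.09, adjusted p = 7.03e-07) in ELS. Fcgr3, the most abundant ligand-binding chain, ranged from 1720 to 2610 CPM (median 2040 CPM) in P9-CTR and from 2980 to 4260 CPM (median 3360 CPM) in P200-CTR-PBS. All CTR adults were above all CTR pups, with a log2 fold change of 0.79 (SE 0.14, adjusted p = 7.49e-06). In P9-ELS its range was 1840 to 5620 CPM (median 2150 CPM), and in P200-ELS-PBS 2800 to 3860 CPM (median 3110 CPM). The ELS ranges overlapped through P9_19.2_ELS, and the log2 fold change of 0.46 (SE 0.15, adjusted p = 0.0085) became 0.64 without it (adjusted p = 5.38e-07). The ELS call was lost when the compared groups were fitted alone (0.43, adjusted p = 0.0708) and with counts summed per nest (0.38, adjusted p = 0.101).

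Fcgrt, the heavy chain of the neonatal receptor, showed the largest age difference of the 6 genes. It was at 516 to 905 CPM (median 687 CPM) in P9-CTR and at 164 to 225 CPM (median 196 CPM) in P200-CTR-PBS. In ELS it was at 368 to 889 CPM (median 699 CPM) at P9 and at 188 to 220 CPM (median 200 CPM) at P200. The ages did not overlap in either condition, and the log2 fold changes were -1.77 (SE 0.11, adjusted p = 3.88e-18) in CTR and -1.76 (SE 0.12, adjusted p = 3.4e-17) in ELS. Its partner B2m did not follow in CTR, with 2540 ± 315 CPM (SD, n = 12) at P9 and 2500 ± 246 CPM (SD, n = 7) at P200 (log2 fold change -0.03, SE 0.11, adjusted p = 0.877). In ELS, B2m fell from 2790 ± 781 CPM (SD, n = 13) to 1960 ± 184 CPM (SD, n = 6), with a log2 fold change of -0.51 (SE 0.12, adjusted p = 0.000661). Its P9-ELS values had a median of 2640 CPM and a maximum of 5230 CPM, and its P200-ELS-PBS median was 1950 CPM. A B2m value without the libraries with few genes is not given.

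Fcgr4, the least abundant receptor, was measured with few reads (57 to 939 counts per mouse). It was at 12.4 to 24.7 CPM (median 15.9 CPM) in P9-CTR and at 9.01 to 14.4 CPM (median 9.41 CPM) in P200-CTR-PBS, and 5 of 7 adults were below every pup. In ELS it was at 10.2 to 41.7 CPM (median 15.6 CPM) at P9 and at 4.96 to 15.6 CPM (median 9.63 CPM) at P200, and the ranges overlapped. The log2 fold changes were -0.61 (SE 0.24, adjusted p = 0.0382) in CTR and -0.91 (SE 0.26, adjusted p = 0.00362) in ELS. The CTR call was weak, since it was lost in 11 of 19 fits that each left out 1 mouse, with adjusted p up to 0.0718.

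For the common chain Fcer1g, P9-CTR ranged from 1160 to 1660 CPM (median 1410 CPM) and P200-CTR-PBS from 1160 to 1720 CPM (median 1350 CPM). In P9-ELS it ranged from 1160 to 4100 CPM (median 1420 CPM), and in P200-ELS-PBS from 1010 to 1350 CPM (median 1050 CPM), with 5 of 6 adults below every pup. The log2 fold change was 0.00 in CTR (SE 0.15, adjusted p = 0.996) and -0.54 in ELS (SE 0.16, adjusted p = 0.00509). Without P9_19.2_ELS the ELS value was -0.34 (adjusted p = 0.00381), and without the 3 libraries with few genes -0.32 (adjusted p = 0.00502). Whether age acted differently in ELS was tested as an interaction, which gave -0.54 (SE 0.22, edgeR p = 0.0164, adjusted p = 0.38). It was -0.34 without P9_19.2_ELS (adjusted p = 0.37) and -0.26 without the 3 libraries with few genes (adjusted p = 0.571).

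The comparison of ages carries differences of handling and cell type that moved with it. P9 mice were not injected, and myelin was removed with Percoll in adults but not at P9, so that these steps and age cannot be told apart. The 8 markers of border macrophages, which also carry Fc receptors, summed to 476 to 922 CPM at P9 and 1.87 to 11.8 CPM at P200. Nearly all of this was Mrc1 (median 700 CPM in P9-CTR and 5.96 CPM in P200-CTR-PBS), while Cd163 and Lyve1 were at medians of at most 2.1 CPM in every group. The 6 B cell markers summed to 108 to 428 CPM at P9 and 23.4 to 116 CPM at P200, nearly all of it Cd79b (median 153 CPM in P9-CTR and 45.5 CPM in P200-CTR-PBS). In the other direction, the 6 endothelial markers summed to 5.02 to 125 CPM at P9 and 148 to 194 CPM in PBS adults. This rise was in Slc2a1 (median 60.2 CPM in P9-CTR and 121 CPM in P200-CTR-PBS) and Pecam1 (26.7 and 45.7 CPM). Medians of Cldn5 (1.38 and 0 CPM), Cdh5 (4.12 and 0.567 CPM), Flt1 (0.276 and 0.0713 CPM) and Ly6c1 (0.0541 and 0 CPM) were lower in these adults. Markers of natural killer cells summed to at most 1.92 CPM at P9 and 1.36 to 10.7 CPM in PBS adults, mostly Klrd1. The part of such cells in the age differences was not tested.

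**Figure D2:**
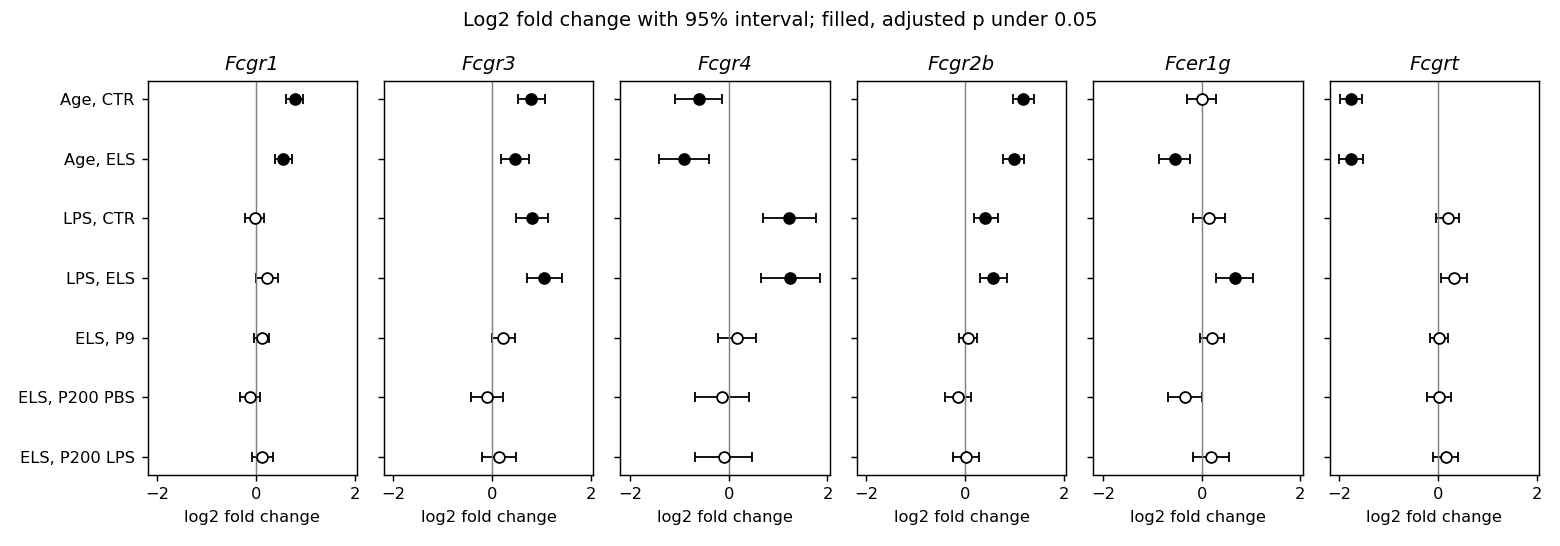
Log2 fold change (x axis) of each Fc receptor gene in 7 comparisons (y axis), from the fit of all 50 mice; bars are 95% intervals, and filled points have an adjusted p under 0.05. Fcgr2b and Fcgrt have the largest age differences (1.18 and -1.77 in CTR), Fcgr4 and Fcgr3 the largest after LPS (1.25 and 1.05 in ELS), and no point for ELS against CTR is filled.

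The response to a systemic immune challenge was examined in adults 3 hours after LPS. Fcgr3 rose 1.76-fold in CTR and 2.07-fold in ELS, Fcgr4 2.34-fold and 2.39-fold, and the inhibitory receptor Fcgr2b 1.33-fold and 1.49-fold. Fcer1g rose in ELS (1.59-fold), and its fold change in CTR was 1.11. The high-affinity receptor Fcgr1 was not called in either condition (0.987-fold and 1.17-fold), and neither was Fcgrt (1.14-fold and 1.25-fold). In CTR, 3 of 6 genes were called, against 14.9% of all genes tested, all 3 higher (8.73% of all genes) and 0 lower (6.2%), and 1 of them was a DEG (9.62%). In ELS, 4 of 6 were called (12.3% of all genes), 4 higher (7.4%) and 0 lower (4.94%), and 2 were DEGs (7.86%). The median log2 fold change of the 6 genes was 0.30 in CTR and 0.62 in ELS, beside 0.00 and -0.04 over all genes tested. The LPS comparisons share their PBS mice with the comparisons of ages.

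Fcgr3 was at 3750 to 8280 CPM (median 6580 CPM) in P200-CTR-LPS, beside 2980 to 4260 CPM after PBS. In 6 of 7 CTR mice it was above every PBS mouse, with a log2 fold change of 0.81 (SE 0.16, adjusted p = 0.000171). The 5 P200-ELS-LPS mice had 6701, 5947, 8202, 6542 and 6654 CPM, beside 2800 to 3860 CPM in P200-ELS-PBS. All 5 were above every ELS-PBS mouse, and the log2 fold change was 1.05 (SE 0.18, adjusted p = 2.09e-05).

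Fcgr4, the other activating receptor that was called, was at 8.87 to 45.0 CPM (median 24.6 CPM) in P200-CTR-LPS and at 9.01 to 14.4 CPM after PBS. Again 6 of 7 mice were above every PBS mouse, and the log2 fold change was 1.23 (SE 0.27, adjusted p = 0.000732). Its level was 25.75, 11.23, 21.14, 33.33 and 26.23 CPM in the 5 P200-ELS-LPS mice, and 4.96 to 15.6 CPM in ELS-PBS. The ELS ranges overlapped through the mouse with 11.23 CPM, with a log2 fold change of 1.25 (SE 0.30, adjusted p = 0.00272). Fcgr4 reads were few, and the spread within a group was wider than for the other genes, so that the 95% interval in CTR ran from 0.70 to 1.76.

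Fcgr2b rose less than Fcgr3 and Fcgr4, from 559 to 646 CPM after PBS to 459 to 967 CPM (median 809 CPM) after LPS in CTR. In 6 of 7 mice it was above every PBS mouse, and the log2 fold change was 0.41 (SE 0.12, adjusted p = 0.0175). In ELS the LPS mice had 860.4, 732.7, 857.3, 841.3 and 728.8 CPM, beside 482 to 597 CPM after PBS. These ranges did not overlap, and the log2 fold change was 0.57 (SE 0.14, adjusted p = 0.00301). The CTR call was lost without P200_8.2_CTR_LPS (0.36, adjusted p = 0.0564), with library size alone as scaling (0.27, adjusted p = 0.0599), with counts summed per nest (0.38, adjusted p = 0.078) and with the nest as a block (0.33, adjusted p = 0.0949).

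P200_5.3_CTR_LPS was the mouse below the others in all 3 of these receptors, with 3750 CPM for Fcgr3, 8.87 CPM for Fcgr4 and 459 CPM for Fcgr2b. Il1b, an inflammatory cytokine transcript, was named after its values were seen. It was at 66.4 CPM in this mouse, against 281 to 668 CPM in the other P200-CTR-LPS mice and at most 4.61 CPM after PBS in CTR. In ELS, Il1b did not go with Fcgr3 in this way. P200_11.2_ELS_LPS had the lowest Il1b of its group, 206 CPM against 253 to 1080 CPM in the others. That mouse had the highest Fcgr3 of its group (8202 CPM), with Fcgr4 at 21.14 CPM and Fcgr2b at 857.3 CPM. Without P200_5.3_CTR_LPS the log2 fold changes in CTR were 0.90 for Fcgr3 (adjusted p = 2.35e-05), 1.38 for Fcgr4 (adjusted p = 8.82e-05) and 0.51 for Fcgr2b (adjusted p = 0.00106).

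The common chain Fcer1g was at 1260 to 1960 CPM (median 1510 CPM) in P200-CTR-LPS, overlapping 1160 to 1720 CPM after PBS, with a log2 fold change of 0.15 (SE 0.17, adjusted p = 0.636). The 5 P200-ELS-LPS mice had 1498, 1490, 2423, 1739 and 1609 CPM, all above the 1010 to 1350 CPM of ELS-PBS. The log2 fold change in ELS was 0.67 (SE 0.19, adjusted p = 0.0126), and it rested in part on P200_11.2_ELS_LPS with 2423 CPM, since without that mouse it was 0.53 (adjusted p = 0.076). With library size alone as scaling it was 0.45 (adjusted p = 0.0518).

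Fcgr1 and Fcgrt were not called after LPS in either condition. For Fcgr1, P200-CTR-LPS ranged from 515 to 594 CPM (median 564 CPM), within the range of the PBS mice apart from its lowest mouse, and the log2 fold change was -0.02 (SE 0.10, 95% interval -0.21 to 0.17). The P200-ELS-LPS mice had 709.5, 597.9, 731.9, 556.0 and 502.5 CPM of Fcgr1, 3 of them above every ELS-PBS mouse, with a log2 fold change of 0.22 (95% interval 0.01 to 0.44, adjusted p = 0.196). For Fcgrt the values were 194 to 263 CPM (median 223 CPM) in P200-CTR-LPS and 211.4, 232.5, 340.3, 252.1 and 221.2 CPM in P200-ELS-LPS. The log2 fold changes of Fcgrt were 0.19 (SE 0.12, adjusted p = 0.344) in CTR and 0.32 (SE 0.13, adjusted p = 0.122) in ELS. The ELS value passed the threshold without the 3 libraries with few genes (0.32, adjusted p = 0.0265). None of these libraries was in P200-ELS-PBS or P200-ELS-LPS, so that the compared mice were the same in both fits.

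Marker lists of other cell types moved with LPS. The 6 endothelial markers summed to 148 to 194 CPM after PBS and to 241 to 1000 CPM after LPS. Most of this was Slc2a1, a glucose transporter that macrophages express as well (median 121 CPM in P200-CTR-PBS and 541 CPM in P200-CTR-LPS), and the defining marker Cldn5 was at a median of 0 CPM in every P200 group. The 5 dendritic cell markers summed to medians of 3.9 CPM after PBS and 9.13 CPM after LPS in CTR, and of 6.12 and 13.2 CPM in ELS, with up to 44.5 CPM in 1 P200-ELS-LPS mouse. Most of this was Zbtb46 (median 3.21 CPM in P200-CTR-PBS and 6.66 CPM in P200-CTR-LPS, 4.27 CPM in P200-ELS-PBS and 13.2 CPM in P200-ELS-LPS). Neutrophil markers summed to medians of 0 CPM after PBS and after LPS in CTR, with at most 0.272 and 1.84 CPM. In ELS their medians were 0.122 and 1.24 CPM, with at most 0.24 and 9.99 CPM. Monocyte markers had medians of 8.01 and 7.94 CPM in CTR, and of 8.55 and 11.4 CPM in ELS. Their maxima in ELS were 12.7 CPM after PBS and 19.4 CPM after LPS. The part of such cells in the LPS differences was not tested.

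Effects of ELS were tested at P9, at P200 after PBS and at P200 after LPS. In each of the 3 comparisons 0 of 6 Fc receptor genes was called by edgeR's quasi-likelihood test, against 0.0%, 0.168% and 0.0% of all genes tested. At an unadjusted p under 0.05 the quasi-likelihood test had 914, 1622 and 798 of all genes in these comparisons, and 0 of the 6 genes in each. Over all genes, edgeR's likelihood-ratio test called 1, 215 and 10, and DESeq2 0, 177 and 2, and neither called one of the 6 genes. The intervals given for these differences come from the SE of a fit that takes littermates as separate samples, so they may be too narrow. Differences beyond them are not excluded.

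At P9, the log2 fold changes of ELS against CTR were 0.12 for Fcgr1 (95% interval -0.03 to 0.26), 0.22 for Fcgr3 (-0.01 to 0.46) and 0.17 for Fcgr4 (-0.22 to 0.56). They were 0.06 for Fcgr2b (-0.13 to 0.24), 0.21 for Fcer1g (-0.04 to 0.46) and 0.01 for Fcgrt (-0.16 to 0.19). P9_19.2_ELS decided the larger of these values, since without it Fcgr3 was at 0.05, Fcgr4 at 0.01, Fcer1g at 0.01 and Fcgr2b at -0.02. In the 11 P9-ELS mice without the libraries with few genes, Fcgr3 was at 2130 ± 191 CPM (SD) and Fcer1g at 1370 ± 156 CPM, beside 2040 ± 216 CPM and 1390 ± 156 CPM in the 12 P9-CTR mice.

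In adults after PBS, the values were -0.11 for Fcgr1 (-0.31 to 0.09), -0.10 for Fcgr3 (-0.43 to 0.22), -0.13 for Fcgr4 (-0.68 to 0.42), -0.15 for Fcgr2b (-0.40 to 0.11) and 0.02 for Fcgrt (-0.23 to 0.26). Fcer1g had the largest difference, with 1390 ± 194 CPM (SD, n = 7) in P200-CTR-PBS and 1100 ± 130 CPM (SD, n = 6) in P200-ELS-PBS. In 5 of 6 ELS mice it was below every CTR mouse, and the log2 fold change was -0.33 (SE 0.18, 95% interval -0.68 to 0.01, adjusted p = 0.568). Without the 3 libraries with few genes, among them the CTR mouse with the highest Fcer1g level (1720 CPM), it was -0.27 (edgeR p = 0.0144, adjusted p = 0.307).

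After LPS, the differences between ELS and CTR were 0.13 for Fcgr1 (-0.07 to 0.34), 0.14 for Fcgr3 (-0.21 to 0.48), -0.10 for Fcgr4 (-0.68 to 0.47), 0.02 for Fcgr2b (-0.25 to 0.28), 0.19 for Fcer1g (-0.18 to 0.55) and 0.15 for Fcgrt (-0.11 to 0.40). The adjusted p was 1.0 for each. The groups overlapped for all 6 genes, with 3 of the 5 P200-ELS-LPS mice above every CTR-LPS mouse for Fcgr1, 1 for Fcer1g and 1 for Fcgrt.

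The interaction tests asked whether LPS or age changed a gene differently in ELS. For LPS, 0 of 6 genes was called (0.0% of all genes by the quasi-likelihood test), with 980 of all genes and 1 of the 6 at an unadjusted p under 0.05. That gene was Fcer1g, at 0.52 (SE 0.26, 95% interval 0.02 to 1.02, edgeR p = 0.0479, adjusted p = 0.841). The values of the others were 0.24 for Fcgr1, 0.24 for Fcgr3, 0.03 for Fcgr4, 0.16 for Fcgr2b and 0.13 for Fcgrt. For age, 0 of 6 genes was called (0.0299% of all genes), with 1712 of all genes and again Fcer1g of the 6 at an unadjusted p under 0.05. The other values were -0.23 for Fcgr1, -0.33 for Fcgr3, -0.30 for Fcgr4, -0.20 for Fcgr2b and 0.00 for Fcgrt. Without P9_19.2_ELS they were -0.16 for Fcgr3, -0.14 for Fcgr4 and -0.12 for Fcgr2b, and without the 3 libraries with few genes -0.12, -0.22 and -0.12. The likelihood-ratio test called 66 and 29 of all genes and DESeq2 11 and 20 in these interactions. Since Fcer1g was called after LPS in ELS and not in CTR, it is the interaction and not these calls that compares the conditions, and it did not pass. Both interactions and the ELS difference after PBS use the same P200-ELS-PBS mice, in which Fcer1g had its lowest mean.

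The order of the groups was read for each gene from the mean CPM. For Fcgr1 the highest was P200-ELS-LPS (620 ± 98.6 CPM, SD, n = 5) and the lowest P9-CTR (331 ± 39.4 CPM, SD, n = 12), and of neighbouring groups P200-ELS-PBS and P9-ELS alone did not overlap. The same pair of neighbours was apart for Fcgr2b, which ranged from 264 ± 30.6 CPM (SD, n = 12) in P9-CTR to 804 ± 67.3 CPM (SD, n = 5) in P200-ELS-LPS. Fcgrt fell into P9 groups (678 ± 97.6 CPM in CTR, SD, n = 12) and P200 groups (251 ± 51.9 CPM at most, SD, n = 5), with a gap between P9-CTR and P200-ELS-LPS. For Fcgr3, Fcgr4 and Fcer1g every group overlapped the next in order.

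The balance of the receptor genes was described from CPM per kb within each mouse, without a test, since the ratios are made of the levels already compared. Summed over Fcgr1, Fcgr2b, Fcgr3 and Fcgr4, the level was 812 ± 85.4 CPM per kb (SD, n = 12) in P9-CTR, 1420 ± 167 (n = 7) in P200-CTR-PBS and 2320 ± 498 CPM per kb (n = 7) in P200-CTR-LPS. In ELS it was 934 ± 327 (n = 13), 1310 ± 156 (n = 6) and 2540 ± 296 CPM per kb (n = 5). Fcgr3 made up most of it, with means of 81.2% and 81.5% in P9-CTR and P9-ELS, 80.4% and 80.7% after PBS, and 86.0% and 86.8% after LPS. The share of Fcgr1 was 11.7% in P200-CTR-PBS and 7.3% in P200-CTR-LPS, and that of the inhibitory Fcgr2b was 5.56% in P9-CTR, 7.3% in P200-CTR-PBS and 5.9% in P200-CTR-LPS. Fcgr4 made up 1.58% at P9, 0.6% after PBS and 0.817% after LPS in CTR.

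**Figure D3:**
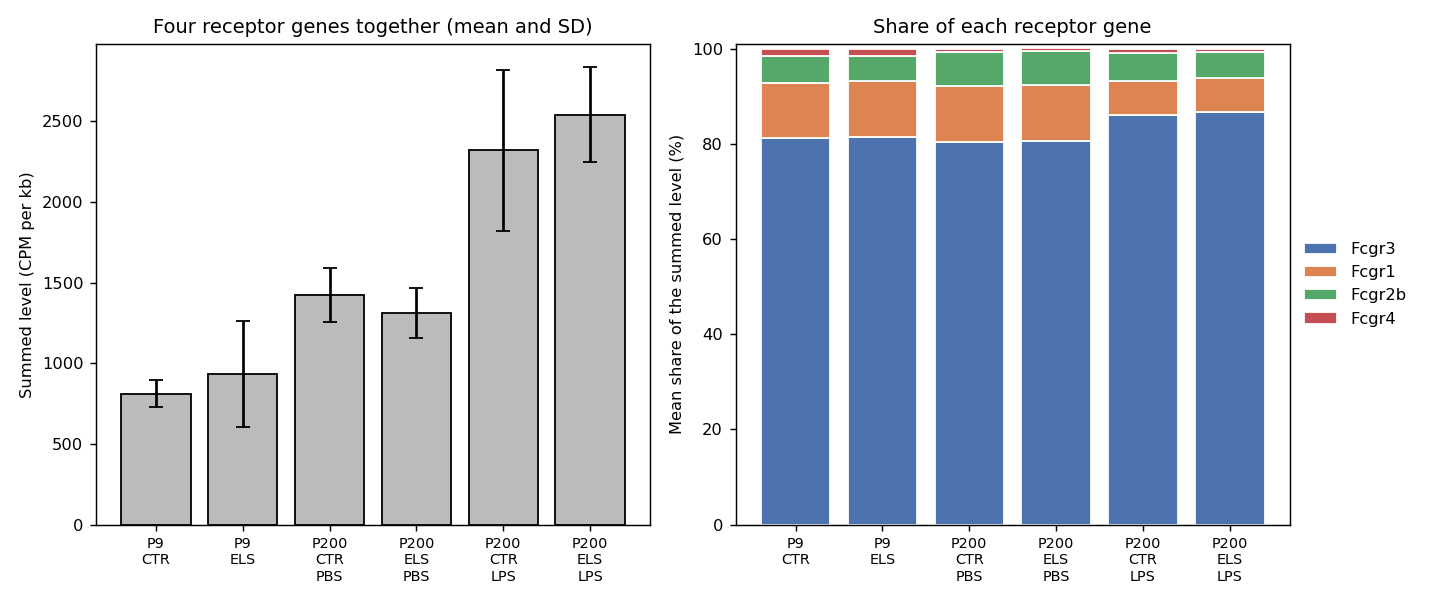
Left, summed level of Fcgr1, Fcgr2b, Fcgr3 and Fcgr4 in CPM per kb (bars, mean; error bars, SD over mice) in the 6 groups; right, mean share of each gene in that sum in percent. The sum rises from 812 CPM per kb in P9-CTR to 2320 CPM per kb in P200-CTR-LPS, and the Fcgr3 share is 80.4% to 81.5% without LPS and 86.0% to 86.8% after it.

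The ratio of Fcer1g to Fcgr3, the chain that carries the ITAM against the most abundant ligand-binding chain, was 1.82 ± 0.105 (SD, n = 12) in P9-CTR and 1.78 ± 0.215 (n = 13) in P9-ELS. It was 1.05 ± 0.0374 (n = 7) in P200-CTR-PBS and 0.902 ± 0.1 (n = 6) in P200-ELS-PBS, and 0.693 ± 0.191 (n = 7) and 0.681 ± 0.0722 (n = 5) after LPS. The common chain thus exceeded Fcgr3 per kb of exon in every pup. After LPS it was below Fcgr3 in the group means, while the ratio in P200_5.3_CTR_LPS was 1.12. The activating to inhibitory ratio of Fcgr3 to Fcgr2b had medians of 14.8 in P9-CTR, 10.9 in P200-CTR-PBS and 15.4 in P200-CTR-LPS, and in ELS of 15.5, 11.7 and 15.4. Fcgr4 to Fcgr2b was 0.287 ± 0.0524 in P9-CTR, 0.0826 ± 0.0146 in P200-CTR-PBS and 0.142 ± 0.0507 in P200-CTR-LPS. Fcgr1 to Fcgr2b was 2.11 ± 0.206, 1.61 ± 0.153 and 1.26 ± 0.372 in the same groups. Ratios that contain both Fcgr3 and Fcgr2b also carry the reads that these genes share and that were not counted.

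**Figure D4:**
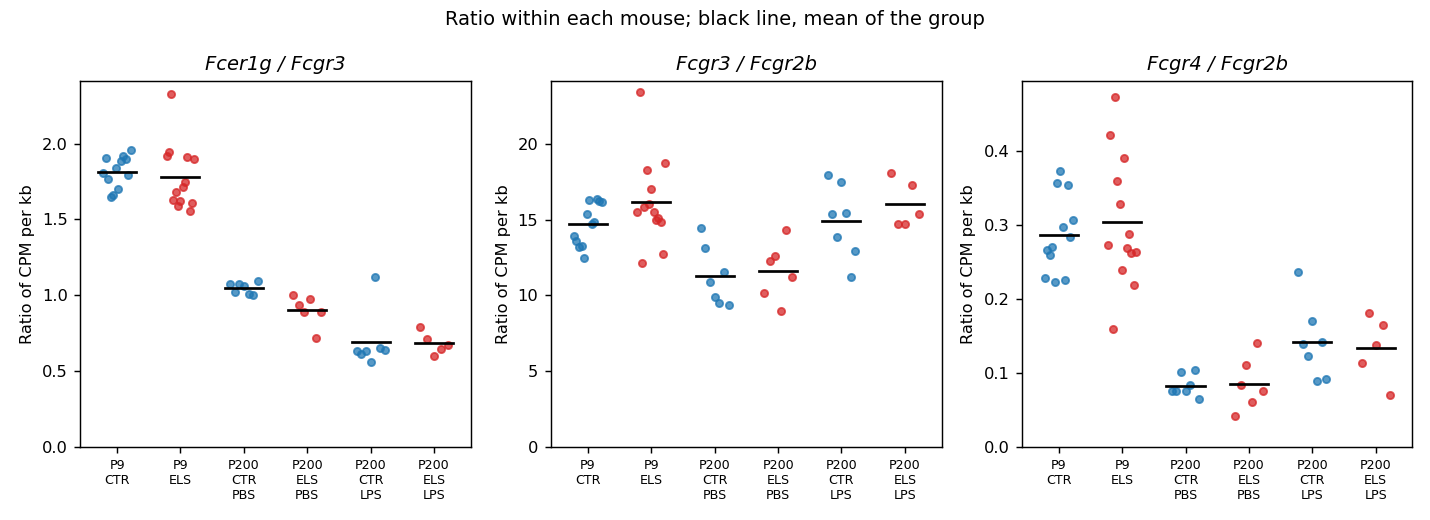
Ratios of CPM per kb within each mouse (points; black lines, group means; blue, CTR; red, ELS) for Fcer1g to Fcgr3, Fcgr3 to Fcgr2b and Fcgr4 to Fcgr2b in the 6 groups. Fcer1g to Fcgr3 has means of 1.82 and 1.78 at P9, 1.05 and 0.902 after PBS and 0.693 and 0.681 after LPS; the P200-CTR-LPS point that stands above its group there is P200_5.3_CTR_LPS.

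Of 13 other genes that encode Fc receptors or their partners, 5 passed the filter on low counts (Fcrls, Fcrl1, Fcrlb, Trim21 and B2m). With age, 2 were higher and 1 lower in CTR, and 1 higher and 2 lower in ELS (44.1% and 42.2% of all genes were called in either direction). Fcrl1, an Fc receptor-like gene, rose from 47.5 ± 4.19 CPM (SD, n = 12) in P9-CTR to 150 ± 16.2 CPM (SD, n = 7) in P200-CTR-PBS, with a log2 fold change of 1.66 (SE 0.16, adjusted p = 1.52e-12). In ELS the log2 fold change of Fcrl1 was 1.26 (SE 0.16, adjusted p = 6.59e-09). Fcrls, a microglial signature gene of the same family, fell from 5900 ± 806 CPM to 4500 ± 196 CPM in CTR (log2 fold change -0.39, SE 0.11, adjusted p = 0.00211) and by 0.48 on the log2 scale in ELS (adjusted p = 0.000394). After LPS, 1 was higher and 1 lower in CTR and 1 higher and 0 lower in ELS, beside 14.9% and 12.3% of all genes called. The one called in ELS was B2m, at 3090 ± 505 CPM (SD, n = 5) after LPS and 1960 ± 184 CPM (SD, n = 6) after PBS (log2 fold change 0.65, SE 0.15, adjusted p = 0.00104), and in CTR it was at 0.11 (adjusted p = 0.66). Those called in CTR were named after their values were seen, and both had few reads: Fcrlb (1.68 ± 1.27 CPM after PBS and 5.41 ± 1.55 CPM after LPS, adjusted p = 0.045) and Trim21, a cytosolic antibody receptor (4.87 ± 5.92 and 1.52 ± 0.312 CPM, adjusted p = 0.0383), whose PBS median was 3.0 CPM.

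The signalling genes that act below the activating receptors were taken as a list of 21 kinases, adaptors and effectors, all of which were tested. After LPS, 4 were higher and 2 lower in CTR and 5 higher and 2 lower in ELS, beside 14.9% and 12.3% of all genes called. The list medians were 0.20 and 0.30 on the log2 scale, beside 0.00 and -0.04 over all genes. The Src family kinase Fgr and the adaptor Lcp2 (SLP-76) rose in both conditions. Lcp2 went from 458 ± 31.2 CPM (SD, n = 7) to 1090 ± 260 CPM (SD, n = 7) in CTR, with a log2 fold change of 1.25 (SE 0.16, adjusted p = 2.87e-08), and had 1.37 (SE 0.18, adjusted p = 7.21e-08) in ELS. Fgr was low after PBS (4.51 ± 3.49 CPM) and at 30.7 ± 13.2 CPM after LPS in CTR (2.77, SE 0.69, adjusted p = 0.00296), and had 3.07 (SE 0.77, adjusted p = 0.00394) in ELS. The adaptor Blnk fell in CTR, from 332 ± 30.4 to 195 ± 19.7 CPM (-0.76, SE 0.11, adjusted p = 9.83e-07), and in ELS (-0.53, SE 0.13, adjusted p = 0.00338). Rac2, a GTPase of the actin response, rose in ELS (0.54, SE 0.16, adjusted p = 0.0156) and had 0.34 in CTR (adjusted p = 0.0952).

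Syk, the kinase that binds the ITAM of Fcer1g, was at 87.4 ± 9.01 CPM (SD, n = 7) in P200-CTR-PBS and 106 ± 41.5 CPM (SD, n = 7) in P200-CTR-LPS, with log2 fold changes of 0.28 (adjusted p = 0.495) in CTR and -0.09 (adjusted p = 0.888) in ELS. Tyrobp, the other ITAM adaptor of microglia, had 0.54 (SE 0.15, adjusted p = 0.00845) in ELS and -0.07 (adjusted p = 0.806) in CTR. Syk and Tyrobp were named after their values were seen.

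Between P9 and P200, 6 of the 21 activating genes were higher and 4 lower in CTR, and 10 higher and 5 lower in ELS. Over all genes, 44.1% and 42.2% were called, so that the CTR count was near its background. The list medians were 0.14 and 0.24, beside -0.09 and -0.01 over all genes. Blnk rose from 161 ± 16.6 CPM (SD, n = 12) to 332 ± 30.4 CPM (SD, n = 7) in CTR (1.04, SE 0.10, adjusted p = 1.81e-12), and the adaptor Lat2 from 111 ± 11.8 to 208 ± 33.2 CPM (0.91, SE 0.11, adjusted p = 2.68e-09). Rac2 fell from 335 ± 48.9 to 177 ± 16.1 CPM (-0.92, SE 0.13, adjusted p = 6.79e-08), and the kinase Fyn from 15.0 ± 3.45 to 3.45 ± 4.01 CPM (-2.12, SE 0.39, adjusted p = 1.7e-05). In ELS the largest were Fyn (-3.13, adjusted p = 9.37e-08), Fgr (1.75, adjusted p = 0.014), Src (1.54, adjusted p = 0.00606) and the adaptor Gab2 (-1.12, adjusted p = 0.000735).

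Of 13 genes that act with inhibitory receptors, all were tested. With age, 5 were higher and 2 lower in CTR and 6 higher and 2 lower in ELS, beside 44.1% and 42.2% of all genes called. The list medians were 0.46 and 0.67, beside -0.09 and -0.01 over all genes. The transmembrane adaptor Pag1 rose to 239 ± 34.9 CPM (SD, n = 7) in P200-CTR-PBS (log2 fold change 2.12, SE 0.13, adjusted p = 1.9e-18) and by a log2 fold change of 2.23 in ELS (adjusted p = 4.49e-19). The adaptor Dok2 fell from 10.0 ± 2.67 to 0.368 ± 0.437 CPM in CTR (-4.78, SE 0.72, adjusted p = 3.3e-07) and by 4.29 on the log2 scale in ELS (adjusted p = 4.83e-06). The phosphatase Ptpn11 fell by 1.09 on the log2 scale in CTR (adjusted p = 5.05e-05) and by 1.02 in ELS (adjusted p = 0.00024). The ubiquitin ligase Cblb rose in CTR (1.02, adjusted p = 0.0312) and had 0.76 in ELS (adjusted p = 0.129). The inhibitory receptor Pirb rose in both conditions, by a log2 fold change of 0.90 in CTR (adjusted p = 0.0122) and of 1.21 in ELS (adjusted p = 0.00108). For Inpp5d, the phosphatase that Fcgr2b recruits, the CTR level was 465 ± 86.1 CPM (SD, n = 12) in pups and 637 ± 131 CPM (SD, n = 7) in PBS adults (log2 fold change 0.46, adjusted p = 0.107), and had 0.86 (SE 0.24, adjusted p = 0.00253) in ELS; it was named after its values were seen.

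After LPS, 1 of the 13 inhibitory genes was higher and 2 were lower in CTR, and 2 were higher and 2 lower in ELS, beside 14.9% and 12.3% of all genes called. The list medians were -0.09 and -0.20, beside 0.00 and -0.04 over all genes. Csk, the kinase that switches Src family kinases off, fell in CTR from 69.4 ± 16.8 to 43.0 ± 6.71 CPM (SD, n = 7 each), a log2 fold change of -0.69 (SE 0.19, adjusted p = 0.00864), and had -0.71 (SE 0.22, adjusted p = 0.0221) in ELS. The adaptor Dok1 fell from 95.9 ± 21.6 to 49.5 ± 14.7 CPM in CTR (-0.95, SE 0.26, adjusted p = 0.00809) and had -0.80 in ELS (adjusted p = 0.0695). In ELS the ubiquitin ligase Cbl fell (-0.66, SE 0.23, adjusted p = 0.0479, beside -0.46 and 0.124 in CTR) and Dok2 rose (2.52, SE 0.75, adjusted p = 0.0181, beside 1.90 and 0.0547 in CTR), the latter from 0.412 ± 0.564 to 2.51 ± 0.852 CPM. The inhibitory receptor Lilrb4a, named after its values were seen, rose from 0.881 ± 0.886 to 13.4 ± 5.32 CPM in CTR (3.92, SE 0.86, adjusted p = 0.000674) and had 3.55 (SE 0.93, adjusted p = 0.00599) in ELS.

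**Figure D5:**
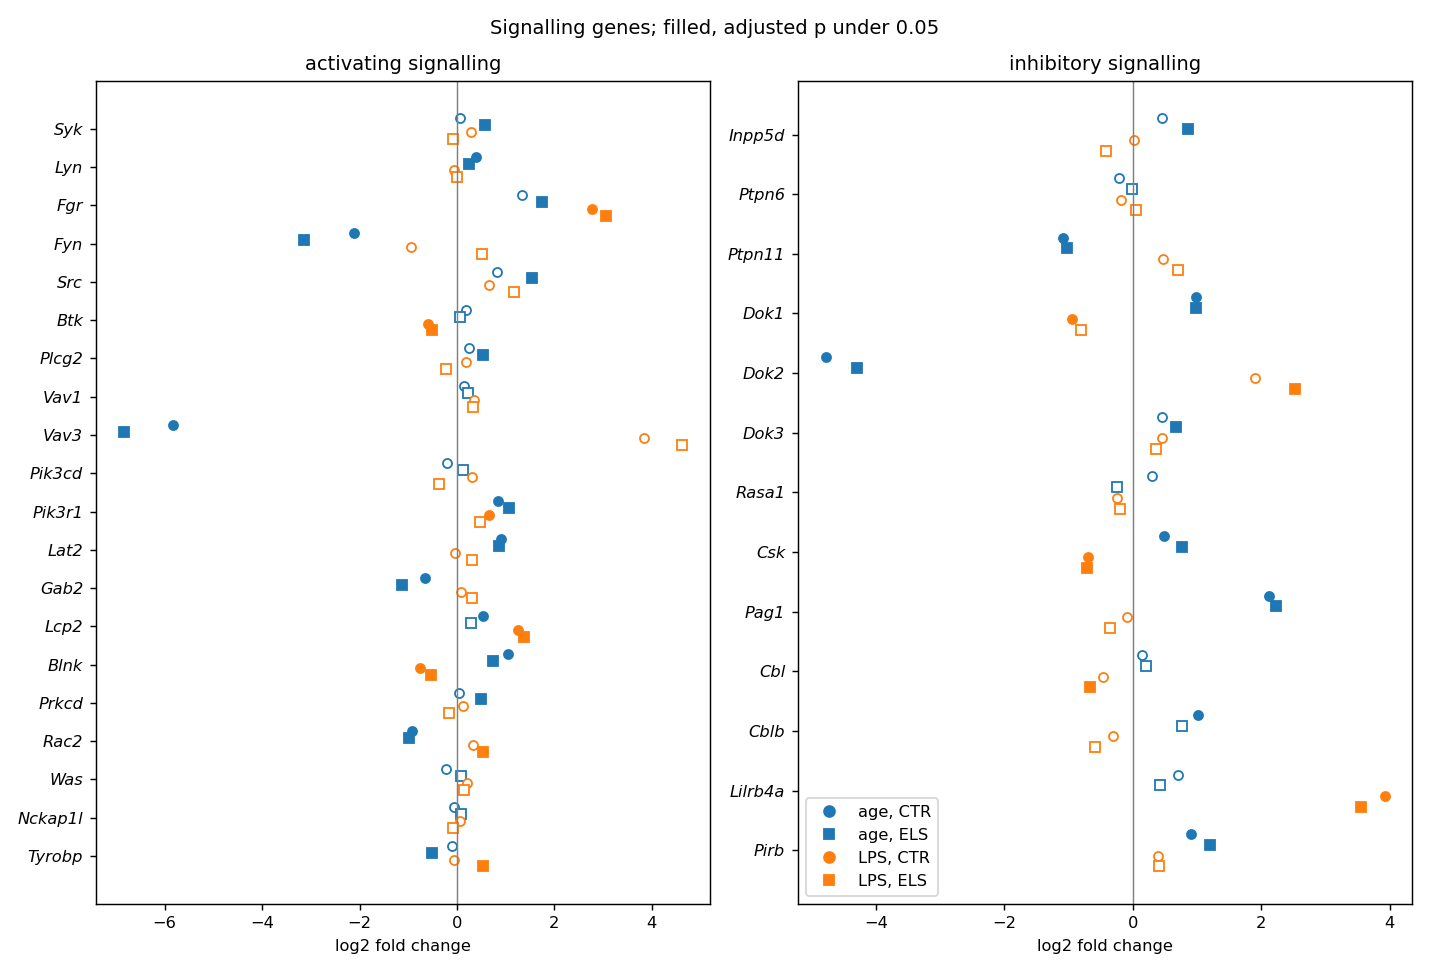
Log2 fold change (x axes) of the activating and inhibitory signalling genes (y axes) with age (blue) and after LPS (orange) in CTR (circles) and ELS (squares); filled symbols have an adjusted p under 0.05. Lcp2 and Fgr lie to the right after LPS (1.25 and 2.77 in CTR) and Csk to the left (-0.69 in CTR); Vav3 was at 0 CPM in every P200 PBS mouse, so that its fitted values are no measure of size.

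Of 9 receptors other than Fc receptors that were listed as partners of Fcer1g, most were not expressed, and 3 were tested (Clec4e, Clec4n and Clec4a2). With age, 0 was higher and 1 lower in CTR and in ELS, beside 44.1% and 42.2% of all genes called. After LPS, 1 was higher and 1 lower in CTR and 1 higher and 0 lower in ELS, beside 14.9% and 12.3%. Clec4a2, a lectin receptor, fell in CTR after LPS from 96.6 ± 20.9 to 62.0 ± 5.86 CPM (SD, n = 7 each; log2 fold change -0.64, SE 0.15, adjusted p = 0.00163) and with age in ELS (-0.43, SE 0.14, adjusted p = 0.0118). In P9-ELS, Clec4a2 had a median of 93.3 CPM and a maximum of 211 CPM, beside a median of 75.8 CPM in P200-ELS-PBS. It had -0.15 after LPS in ELS (adjusted p = 0.653) and 0.20 with age in CTR (adjusted p = 0.219). Whether Clec4a2 signals through Fcer1g was not tested, so its values are no measure of the partners of Fcer1g. Clec4e, named after its values were seen, was at 0 CPM in every P200-CTR-PBS mouse and at 0.334 ± 0.505 CPM (SD, n = 7) in P200-CTR-LPS. For ELS against CTR at either age and treatment, and for both interactions, 0 genes of the 4 lists were called in either direction.

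Genes whose log2 CPM followed each receptor gene most closely were ranked by Pearson's r, which is given as a description, since all mice share the differences of age and treatment and the scaling of their library. Over the 50 mice, Fcgr3 was most like Taf7 (0.953), Med7 (0.944) and Cd14 (0.939), and Fcgr2b was most like Sting1 (0.97), Nfe2l2 (0.968) and Srgn (0.964). Fcgr4 had the lowest values, with Sod2 (0.782), Cd74 (0.771) and Sptlc2 (0.76). Fcgr1 was most like Saraf (0.946), Rabac1 (0.942) and Edem2 (0.94), Fcgrt like Gm10143 (0.97), Fen1 (0.97) and Gusb (0.969), and Fcer1g like Dad1 (0.92), D8Ertd738e (0.903) and B2m (0.896).

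Within the 25 P200 mice, where age did not differ, Fcgr3 was most like Ms4a6d (0.938), Nip7 (0.937) and Ms4a6c (0.932), and Fcgr4 like Cxcl16 (0.901), Eif4a1 (0.89) and Nfe2l2 (0.878). Fcgr2b was most like Eif1 (0.933), Sting1 (0.93) and Ctsb (0.924). For Fcer1g, D8Ertd738e (0.945) and B2m (0.909) remained among the 3 most alike genes, joined by Alox5ap (0.913). Fcgr1 had Commd7 (0.739), Sf3b5 (0.715) and Slc35a2 (0.702), and Fcgrt had Arpc4 (0.853), Trappc4 (0.852) and Sra1 (0.847).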

How the data were processed

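Hippocampal microglia were sorted, and 1 poly-A RNA library was sequenced per mouse. Per the labels and the study's methods, the authors called bases (bcl2fastq 2.20), trimmed adapters (cutadapt 2.10), aligned them to GRCm39 (STAR), and used HTSeq 0.11.0 to count unique reads in the exons of each gene. The deposited values are whole-number counts without normalization. The annotation release and the strand setting are not given in the sources used here. Of 53700 gene identifiers, 52610 were found in GENCODE vM39, which gave positions and exon lengths.

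Total counts per mouse ranged from 5152838 to 42231258. A gene was kept if it reached 1 CPM in more than 2 of the 50 mice (16696 genes). Counts were scaled with TMM and tested with the quasi-likelihood test of edgeR 4.0.16 (R 4.3.3) in 1 model of the 6 group means, with contrasts for 9 comparisons and Benjamini-Hochberg adjustment over all genes tested. A gene was called at an adjusted p under 0.05, and was a DEG if the log2 fold change was also beyond 1. Intervals are 95% intervals from the SE, CPM per kb used all annotated exon bases, and a prior count of 2 went into log2 CPM. Simulated data were used to check the test. Figures were drawn with Python 3.11.15 and matplotlib 3.10.9.

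The receptor genes and the gene lists were chosen with earlier results of these data known. All 6 receptor genes are named in every comparison. From each list, up to 4 called genes with the largest log2 fold change and a mean log2 CPM of at least 1 are named, and B2m and Fcrls always. The most alike genes are the 3 with the highest Pearson's r among genes with a mean log2 CPM of at least 3. Groups came from the labels. The labels do not define the number before the point, which was read as a nest. There were 19 nests, each with 1 condition within an age, so that nest and condition overlap, and p-values over mice take littermates as separate samples. Deviations of PBS and LPS mice with the same nest number had a median correlation of 0.0306 in 15 pairs, 1 of them over 0.1. In 218 pairs from other nests it was -0.00196, with 7 over 0.1. So few same-nest pairs cannot exclude an effect of the nest, and the voom fit estimated a nest correlation of 0.0778. Alternatives were the likelihood-ratio test, DESeq2 1.42.0, its size factors in edgeR, library size alone, other filters, the compared groups alone, counts summed per nest, limma 3.58.1 voom with the nest as random effect, a nest block, each mouse left out, and all mice but the 3 with under 16000 genes above 0. A gene of the activating list and some of the marker lists are counted in their lists and are not named or plotted here. Protein sequences were not used here.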

Additional observations from a re-analysis of the deposited data

Results flagged for a closer look

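In groups of 4 to 10 mice, a value was looked at again if its gap to the nearest mouse was a large part of the range of the group by Dixon's criterion. Of 24 combinations of gene and group, 3 met it, where chance gives about 1 in 20. Fcgr2b was at 459 CPM in the P200-CTR-LPS mouse P200_5.3_CTR_LPS, against 772 to 967 CPM in the other 6 mice. Fcer1g was at 1350 CPM in the P200-ELS-PBS mouse P200_17.1_ELS_PBS, against 1010 to 1110 CPM in the others, and at 2420 CPM in the P200-ELS-LPS mouse P200_11.2_ELS_LPS, against 1490 to 1740 CPM. The groups at P9 were too large for this criterion.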

How the results depend on the processing

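The number of Fc receptor genes called was 4 to 5 with age in CTR, 5 to 6 with age in ELS, 2 to 3 after LPS in CTR, 3 to 5 after LPS in ELS and 0 for every ELS and interaction comparison, over 22 to 48 alternatives each. No called log2 fold change turned its direction. In fits that each left out 1 mouse, 995 values kept direction and side of the threshold, 13 lost their call and 48 uncalled values near 0 changed sign; in the other alternatives these were 527, 9 and 21, and 1 was gained (Fcgrt after LPS in ELS). Library size alone in place of TMM moved the log2 fold changes of the 6 genes by a median of -0.22 after LPS in ELS, -0.13 after LPS in CTR, -0.10 with age in CTR and -0.10 for ELS at P9. Calls were lost for Fcgr4 with age in CTR by voom (-0.55, adjusted p = 0.0862), with no filter (-0.59, adjusted p = 0.0612) and with counts summed per nest (-0.64, adjusted p = 0.0954). They were lost for Fcgr3 with age in ELS when the groups were fitted alone (0.43, adjusted p = 0.0708) and with counts summed per nest (0.38, adjusted p = 0.101), and the cause was not tested. With the nest number as a replicate block, the call of Fcgr2b after LPS in CTR was lost (0.33, adjusted p = 0.0949), and no other call for these genes changed. Same-nest PBS and LPS mice had a median correlation of 0.0306 in 15 pairs, and the numbers were not taken as pairs in the main fit. This does not exclude an effect of the nest.

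Of the uncalled values that changed sign, Fcer1g with age in CTR was 0.01 with DESeq2, its size factors, no filter, at least 10 counts in 5 mice or the groups alone, and 0.04 per nest. For ELS at P9, Fcgr2b was -0.03 with library size alone and -0.04 without the 3 libraries with few genes, where Fcer1g was -0.02, and Fcgrt was 0.00 by voom, -0.04 with library size alone and -0.02 per nest. For ELS after LPS, Fcgr4 was 0.03 per nest and Fcgr2b -0.03 with library size alone. Per nest, Fcgr1 after LPS in CTR was 0.01. In the interactions, Fcgr4 with LPS was -0.05 with library size alone, and Fcgrt with age was -0.02 with DESeq2, its size factors or no filter, -0.03 with the groups alone and -0.01 without the 3 libraries. Leaving out 1 mouse gave ranges across 0 for Fcer1g with age in CTR (-0.06 to 0.04), Fcgr1 after LPS in CTR (-0.04 to 0.02), Fcgr2b (-0.02 to 0.09) and Fcgrt (-0.02 to 0.07) for ELS at P9, Fcgr4 (-0.31 to 0.00) and Fcgrt (-0.02 to 0.05) for ELS after PBS, and Fcgr4 (-0.26 to 0.10) and Fcgr2b (-0.08 to 0.07) for ELS after LPS. The same held for Fcgr4 (-0.13 to 0.23, with -0.12 without P200_5.3_CTR_LPS and -0.11 without P200_11.1_ELS_PBS) and Fcgrt (0.00 to 0.19) in the interaction with LPS and Fcgrt (-0.05 to 0.04) in that with age. Levels per kb were higher with the longest transcript as length for all genes but Fcgr4. With 57 to 939 counts per mouse, Fcgr4 was the gene that depth limited most.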
